A study of Mus musculus with 4 samples.

Results

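The keratins and claudins are the genes that build the filaments and the cell-cell seals of epithelia. They were taken as every gene whose symbol is Krt or Cldn followed by digits alone. The rule picked 73 of the 55418 genes of the count table, made up of 50 keratins and 23 claudins. Of the keratins, 26 are type I (acidic) and 24 are type II (basic). Another 17 genes with similar symbols, such as Krt6a and Krt33a, fall outside the rule, and of these only Cldn34c1 had more than 3 counts in any library. RNA-seq counts came from E14, a mouse embryonic stem cell (ESC) line listed with the strain 12910la and grown in serum with LIF, the cytokine that holds ESCs undifferentiated. The 2 groups were wild-type (WT) ESCs, with 2 samples, and Pim3-/- ESCs, with 2 clones in which CRISPR/Cas9 had edited the gene of the kinase PIM3. Each Pim3-/- library is therefore 1 clone, and an effect of the genotype cannot be told apart from other differences between these clones and the WT cultures.

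Keratin filaments are obligate heteropolymers of a type I and a type II chain. Simple epithelia, among them the trophectoderm and the visceral endoderm of the early embryo, use Krt8 with Krt18 and Krt19, whereas stratified epithelia use other pairs. Filaments are anchored at desmosomes through plakins such as desmoplakin. Claudins are membrane-spanning proteins whose strands close the space between cells at tight junctions, where they are held by scaffolds such as ZO-1 and are joined by occludin and the JAM proteins. ESCs are not an epithelium in the strict sense, although the cells grow in tight colonies and express E-cadherin.

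Total counts were 23156247 and 25668307 in the WT libraries, compared with 22892949 and 22029427 in the libraries labelled Pim3-/-. Keratins and claudins took 6318 and 6931 of these counts in WT ESCs and 6835 and 8714 in Pim3-/- ESCs, between 0.027% and 0.0396% of a library. Pim3 itself had counts of 4392 and 4953 in WT compared with 4970 and 4804 in Pim3-/- ESCs (log2 fold change -0.27, adjusted p = 0.251 in edgeR). Counts over the whole gene include the parts outside the edited sites, so this value does not check the labels. Of the 10 pluripotency markers examined, all passed the low-count filter, and Pou5f1 was among the most abundant, with 2247 CPM ± 154 (SD, n = 2) in WT and 1030 CPM ± 104 (SD, n = 2) in Pim3-/- ESCs. CPM are counts per 1e+06 counts after scaling with TMM factors, which set the median log2 fold change of all tested genes at 0.068. With library totals in place of these factors that median was 0.518, so each fold change has to be read relative to this shift.

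Many keratins and claudins were silent or close to it. With a count of at most 3 taken as absent, 30 of the 73 were absent from all 4 libraries, and 12 of these had no count at all. Those 30 comprised 12 type I keratins, 11 type II keratins and 7 claudins. Across the whole table the absent share was 57.0% (31607 of 55418 genes). A count of 3 corresponds to 0.112 to 0.157 CPM, depending on the library, and a count of 0 allows up to that level, in terms of counting error only. Above this limit were 29 and 32 members in WT compared with 38 and 35 in Pim3-/- ESCs, and 27 members exceeded it in all 4. Another 9 members exceeded it only in Pim3-/- libraries, against 1, Krt78, only in a WT library. In the whole table these patterns held for 3220 and 492 of 55418 genes, so there too more genes were above the limit only in Pim3-/- libraries. Of the 9 members, Krt80 and Cldn20 were above 3 counts in both Pim3-/- libraries, and the other 7 were Krt75, Krt76, Krt87, Krt90, Cldn1, Cldn10 and Cldn23, with at most 7 counts in any library. These 7 and Cldn20 are named after their values were seen.

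Compared per kilobase of exon, a handful of genes made up nearly all of the signal. In WT ESCs the highest was Cldn4, a claudin of many simple epithelia, at 44.8 CPM per kb ± 0.0478 (SD, n = 2). It was followed by Krt42 at 24.2 ± 4.23, Krt18 at 22.2 ± 1.31, Krt8 at 20.9 ± 0.324, Cldn6 at 16.3 ± 1.12, Krt17 at 12.7 ± 0.938, Krt19 at 8.27 ± 1.20 and Cldn7 at 7.75 ± 1.32 CPM per kb. The WT ranges of Krt42 and Krt18 overlapped, as did those of Krt19 and Cldn7, so the order within these pairs is not resolved. In Pim3-/- ESCs Cldn4 at 41.0 ± 23.2 and Krt19 at 33.7 ± 11.9 CPM per kb were the highest by their means, with overlapping ranges. In the first clone library Krt19 was at 25.3 and Cldn4 at 24.6 CPM per kb, in the second Krt19 at 42.1 and Cldn4 at 57.4, so their order is not resolved. Krt42 stood sixth by its mean, at 6.83 ± 0.321. Krt8, Krt18 and Cldn6 were at 18.5 ± 0.937, 14.9 ± 2.80 and 12.1 ± 4.03 CPM per kb in the Pim3-/- libraries. The plot of levels per library shows all 24 members that passed the low-count filter.

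**Figure D1:**
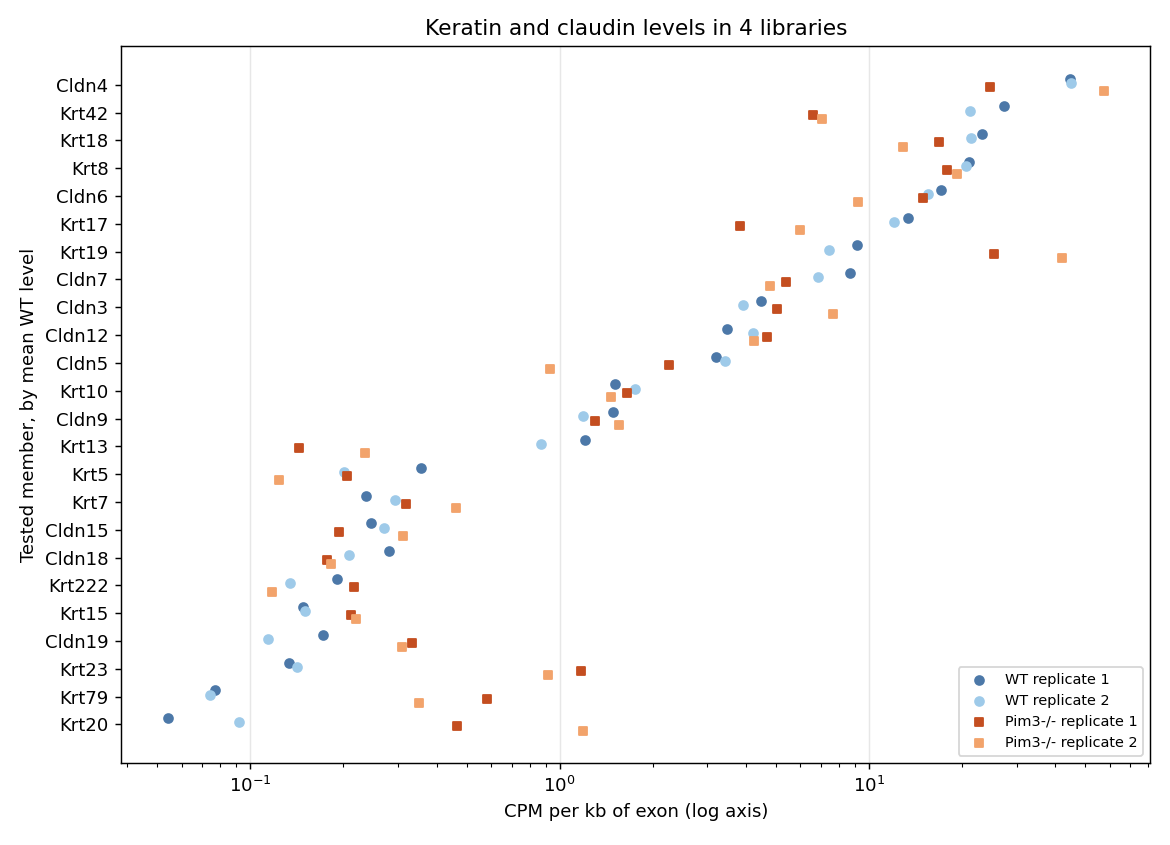
Levels of the 24 tested keratins and claudins in each library, as CPM per kb of exon on a log axis, ordered by the mean WT level. Circles are the 2 WT libraries and squares the 2 Pim3-/- libraries. Krt19, Krt23, Krt79 and Krt20 lie to the right in both Pim3-/- libraries, Krt42, Krt17 and Krt13 lie to the left, and the 2 Pim3-/- points of Cldn4 lie on either side of the WT points.

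Whether loss of Pim3 shifted these genes was tested in the fit over all 18444 genes that passed the filter, among them 24 members, that is 10 type I keratins, 4 type II keratins and 10 claudins. Krt19, Krt20, Krt23 and Krt79 rose in Pim3-/- ESCs, and Krt42, Krt17 and Krt13 fell. The 4 that rose are 16.7% of the tested members, beside 17.6% of all tested genes, and the 3 that fell are 12.5%, beside 16.2%. Calls were therefore about as frequent among the members as among all genes. With the additional demand of a change of at least 3-fold, 4 of the 24 members rose and 2 fell. These are larger shares than the 8.47% and 1.38% of all tested genes. However, Krt20, Krt23 and Krt79 among them passed the filter through the Pim3-/- libraries alone. With at least 10 counts in every library, 1 member rose and 1 fell by 3-fold or more. The tested members had a median log2 fold change of -0.052, with 11 above and 13 below 0, beside 0.068 for all tested genes. The 7 called members were keratins, 6 of them type I. With at least 10 counts in every library Krt20, Krt23, Krt79 and Krt13 were not tested, and the calls were Krt19, Krt42, Krt17 and a claudin, Cldn19 (adjusted p = 0.0485 in edgeR). Leaving out either WT library gave fewer calls and leaving out either Pim3-/- library gave more, among the members as over all tested genes. With library totals in place of the TMM factors 7 members rose and 3 fell, and over all genes the split went from 3246 higher and 2987 lower to 6606 and 1092. Members that passed the filter through the group in which they are high had to differ, so counts over the passing members are descriptions. Being bulk data, these values cannot tell more cells that express a gene from more RNA per cell.

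**Figure D2:**
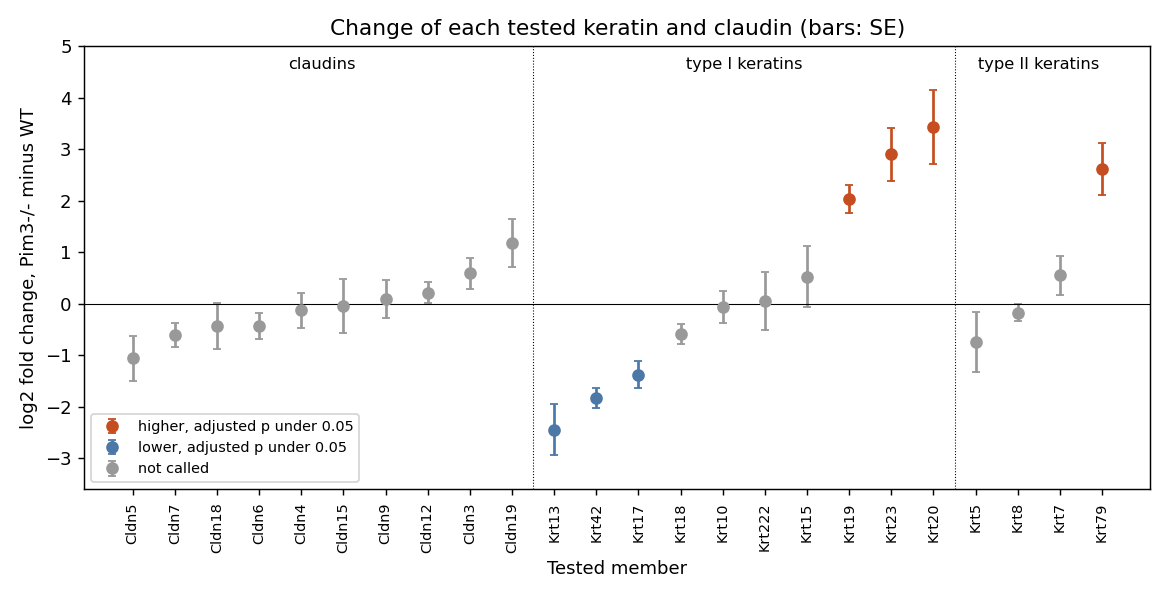
log2 fold change of the 24 tested members, Pim3-/- minus WT, by family, with bars for the standard error from edgeR. Red and blue points have an adjusted p under 0.05 and grey points do not. The 4 red and 3 blue points are all keratins, and the 10 claudins are grey.

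Krt19, a small type I keratin of simple epithelia and of the trophectoderm, was the most abundant gene that rose. Its counts were 324 and 312 in WT compared with 1251 and 2015 in Pim3-/- ESCs. Both Pim3-/- libraries were far above both WT libraries, and the second was the higher of them. This corresponds to 15.3 CPM ± 2.22 (SD, n = 2) in WT and 62.5 CPM ± 22.1 (SD, n = 2) in Pim3-/- ESCs, a 4.08-fold rise (log2 fold change 2.03, standard error (SE) 0.27, adjusted p = 0.00433 in edgeR). Krt19 was called in each of the 10 alternative settings, with an adjusted p of at most 0.0279 in edgeR and a log2 fold change of 1.60 to 2.48. None of its 50-base stretches occurs in the transcripts of another gene.

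The other genes that rose were scarce in WT ESCs. Krt20, Krt23 and Krt79 had fewer than 10 counts in both WT libraries and passed the filter through the Pim3-/- libraries alone, so they had to differ to be tested at all, and their p-values describe genes selected in that way. Krt20, a keratin of the intestinal lining and the bladder surface, had counts of 2 and 4 in WT compared with 24 and 59 in Pim3-/- ESCs. Its Pim3-/- libraries differed 2.55-fold from each other and still did not overlap with WT. The change was 10.8-fold (log2 fold change 3.43, SE 0.72, adjusted p = 0.0120 in edgeR), a value that rests on 6 WT counts. Krt23, a type I keratin, had counts of 4 and 5 in WT compared with 49 and 37 in Pim3-/- ESCs, or 0.215 ± 0.00844 CPM (SD, n = 2) versus 1.64 ± 0.283 CPM (SD, n = 2). Its libraries were close to each other within each group (log2 fold change 2.90, SE 0.52, adjusted p = 0.00783 in edgeR). Krt79, a type II keratin of hair follicle openings and sebaceous ducts, had counts of 7 and 8 in WT compared with 74 and 43 in Pim3-/- ESCs. Here the first Pim3-/- library was the higher one (log2 fold change 2.61, SE 0.50, adjusted p = 0.00945 in edgeR). All 3 lost their call in edgeR without WT replicate 1 (adjusted p = 0.0943, 0.0844 and 0.0793 for Krt20, Krt23 and Krt79) and without WT replicate 2 (0.0624, 0.0726 and 0.0749), while their log2 fold changes stayed above 2. Krt80, a type II keratin that did not pass the filter, had counts of 1 and 1 in WT compared with 9 and 32 in Pim3-/- ESCs. The ratio of its scaled group counts was 16.3, with an exact 95% interval of 4.24 to 139 for counting error alone. Such intervals were computed only for members above 3 counts in both Pim3-/- libraries and in neither WT library. The ratio therefore had to lie above 1, and the interval is a description, not a test.

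Krt42, a type I keratin that mice express in the nail unit, was the most abundant keratin that fell. Its counts were 920 and 849 in WT compared with 311 and 321 in Pim3-/- ESCs. The 2 Pim3-/- libraries were nearly equal and both lay far below WT. This was 42.8 ± 7.46 CPM (SD, n = 2) versus 12.1 ± 0.566 CPM (SD, n = 2), a fall of 3.55-fold (log2 fold change -1.83, SE 0.19, adjusted p = 0.00304 in edgeR). It was called in each of the 10 alternatives, with an adjusted p of at most 0.0225 in edgeR. Krt17, a keratin of hair follicles that wounded epidermis induces, had counts of 398 and 424 in WT compared with 159 and 239 in Pim3-/- ESCs, or 19.8 ± 1.46 CPM (SD, n = 2) versus 7.61 ± 2.34 CPM (SD, n = 2). The groups did not overlap, and the fall was 2.59-fold (log2 fold change -1.37, SE 0.26, adjusted p = 0.00945 in edgeR). Krt13, a keratin of the oesophageal and oral lining, had counts of 42 and 36 in WT compared with 7 and 11 in Pim3-/- ESCs, a fall of 5.42-fold in a gene that had 10 counts or more in both libraries of WT only (log2 fold change -2.44, SE 0.50, adjusted p = 0.0116 in edgeR). Without WT replicate 1 the calls of Krt17 and Krt13 were lost in edgeR (adjusted p = 0.0761 and 0.126), with log2 fold changes of -1.35 and -2.24. Krt17 shares 4.0% of its 50-base stretches with Krt14, Krt16, Krt42 and Krt15, and none of its 100-base stretches, so a small part of its reads could be split with these paralogs.

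The genes that moved in opposite directions were neighbours. In GRCm38, 25 of the 26 type I genes lie on chromosome 11 between 99232761 and 100269871. Krt18, the remaining one, lies on chromosome 15 (102028180 to 102032027), beside the 24 type II genes (101347444 to 102004482), with 23.7 kb between Krt8 and Krt18. Krt19 (chr11:100140810-100148665) is 19.2 kb from Krt13 (chr11:100117327-100121566), with Krt15 between them. On the other side it is 107.6 kb from Krt17 (chr11:100256217-100261029), which in turn is 1.9 kb from Krt42 (chr11:100262882-100269871). Within this stretch of 152.5 kb from Krt13 to Krt42, Krt13, Krt17 and Krt42 fell and Krt19 rose. Krt15, a keratin of basal cells, had counts of 5 and 6 in WT compared with 10 and 10 in Pim3-/- ESCs and was not called. Krt20 (chr11:99428403-99438150) and Krt23 (chr11:99477974-99493137), which both rose, are 39.8 kb apart near the other end of the cluster. Of the 25 genes of the cluster, 13 had more than 3 counts in some library, and the plot along the cluster shows that the run from Krt39 to Krt36, between Krt23 and Krt13, was silent.

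**Figure D3:**
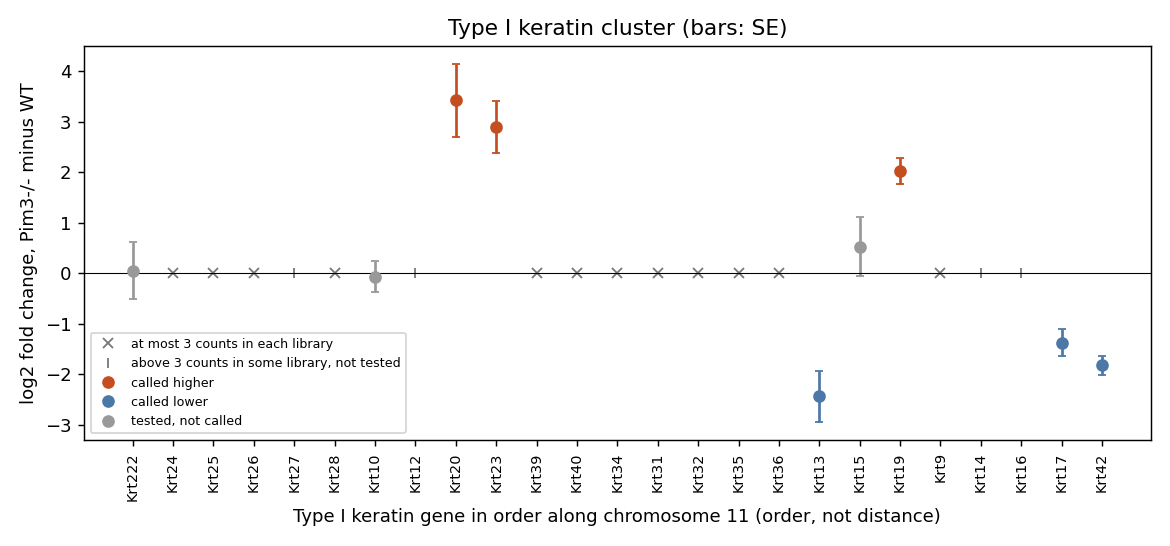
log2 fold change, Pim3-/- minus WT, of the 25 type I keratin genes of the chromosome 11 cluster in their order along the chromosome, not to distance, with bars for the standard error. Crosses at 0 mark genes with at most 3 counts in each library and ticks mark genes above 3 counts that were not tested, and neither has a measured change. Krt20, Krt23 and Krt19 lie above 0 and Krt13, Krt17 and Krt42 below it.

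The stretches directly before the start sites are shown for the called genes of the cluster that the RefSeq promoter table holds, since they rose or fell while being close together. They are the 100 bases before the RefSeq start, written 5′ to 3′ on the gene's own strand (minus), from GRCm38.p6, a C57BL/6J sequence that can differ from E14. Capitals mark TATAAA or ATAAAA, 2 overlapping forms of the TATA motif. ATAAAA was added to the search after the sequences were seen.
Krt20 (rose, chr11:99438154-99438253): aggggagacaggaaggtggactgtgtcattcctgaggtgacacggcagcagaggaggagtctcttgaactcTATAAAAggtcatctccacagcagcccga
Krt23 (rose, chr11:99493121-99493220): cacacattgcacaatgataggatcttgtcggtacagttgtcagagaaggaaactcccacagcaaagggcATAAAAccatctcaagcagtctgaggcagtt
Krt13 (fell, chr11:100121567-100121666): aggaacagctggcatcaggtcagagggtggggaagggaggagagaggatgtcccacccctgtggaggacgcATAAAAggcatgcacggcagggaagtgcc
Krt42 (fell, chr11:100269952-100270051): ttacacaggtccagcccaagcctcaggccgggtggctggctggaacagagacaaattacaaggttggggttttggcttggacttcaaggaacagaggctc
The motif begins 29 bases before the start in Krt20, 31 in Krt23 and 29 in Krt13, and these letters do not occur in the window of Krt42. The RefSeq start of Krt42 lies upstream of the gene start used above (100269871), and the bases directly before that start were not searched. Genes with this motif thus stood both among those that rose and among those that fell. In the 250 bases before the start, on either strand, TATAAA occurred in 31.5% of the 54 member promoters in the table and in 13.0% of 27025 promoters, and ATAAAA in 38.9% and 17.7%. For GGGCGG, the core of a GC box, the shares were 16.7% and 33.0%. AGATAA, the GATA factor motif, occurred in 20.4% and 10.2%, and TGANTCA, the AP-1 motif, in 5.6% and 6.9%. Such matches describe the letters and are not binding sites.

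The filament pair of simple epithelia itself was not called. Krt8 had counts of 791 and 915 in WT compared with 934 and 969 in Pim3-/- ESCs, which after scaling was 40.9 ± 0.634 CPM (SD, n = 2) versus 36.3 ± 1.83 CPM (SD, n = 2). The difference was -0.17 on the log2 scale (SE 0.16, adjusted p = 0.425 in edgeR) and turned to 0.28 with library totals. Of its 50-base stretches 29.7% also occur in Krt8-ps and Gm36026, so its counts are uncertain to that extent. Krt18 had counts of 637 and 693 in WT compared with 647 and 478 in Pim3-/- ESCs, or 31.9 ± 1.88 CPM (SD, n = 2) versus 21.4 ± 4.03 CPM (SD, n = 2). Both Pim3-/- libraries lay below both WT libraries after scaling (log2 fold change -0.58, SE 0.19, adjusted p = 0.0533 in edgeR). It passed the threshold in 4 of the 10 alternatives, among them the size factors of DESeq2 (adjusted p = 0.0452 in edgeR) and the omission of either Pim3-/- library. The ratio of Krt18 to Krt8, per kb and free of any scaling, was 1.10 and 1.03 in WT and 0.944 and 0.672 in Pim3-/- ESCs.

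Within the type I pool the shares of Krt19, Krt42 and Krt17 separated the groups. Summed type I levels were 76.9 and 65.9 CPM per kb in WT and 57.2 and 73.1 in Pim3-/- ESCs, and summed type II levels were 22.1 and 21.7 against 19.7 and 20.8 CPM per kb. Type I transcripts exceeded type II transcripts 3.47-fold and 3.03-fold in WT and 2.90-fold and 3.51-fold in Pim3-/- ESCs, with overlapping ranges. The sums themselves depend on the scaling. On the scale of CPM, type I sums were 127 and 108 in WT and 97.6 and 128 in Pim3-/- ESCs with TMM factors, overlapping, whereas with library totals they were 105 and 95.5 in WT and 114 and 149.6 in Pim3-/- ESCs. Type II sums with library totals were 37.2 and 39.3 CPM in WT and 49.5 and 53.0 CPM in Pim3-/- ESCs, so that in both families the Pim3-/- libraries then lay above WT. Krt8 supplied 90.7% to 95.3% of the type II sum in each library. Within the type I sum, Krt19 held 11.9% and 11.3% in WT and 44.2% and 57.7% in Pim3-/- ESCs. The share of Krt42 was 35.4% and 32.2% in WT and 11.6% and 9.66% in Pim3-/- ESCs, and that of Krt17 was 17.4% and 18.3% against 6.71% and 8.18%. Krt18 held 30.1% and 32.3% in WT and 29.5% and 17.7% in Pim3-/- ESCs. Relative to Krt8, Krt19 was at 0.432 and 0.360 in WT and at 1.41 and 2.19 in Pim3-/- ESCs. No test was run on these shares, since an exact two-sided permutation test of 2 against 2 libraries cannot go below 0.333.

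**Figure D4:**
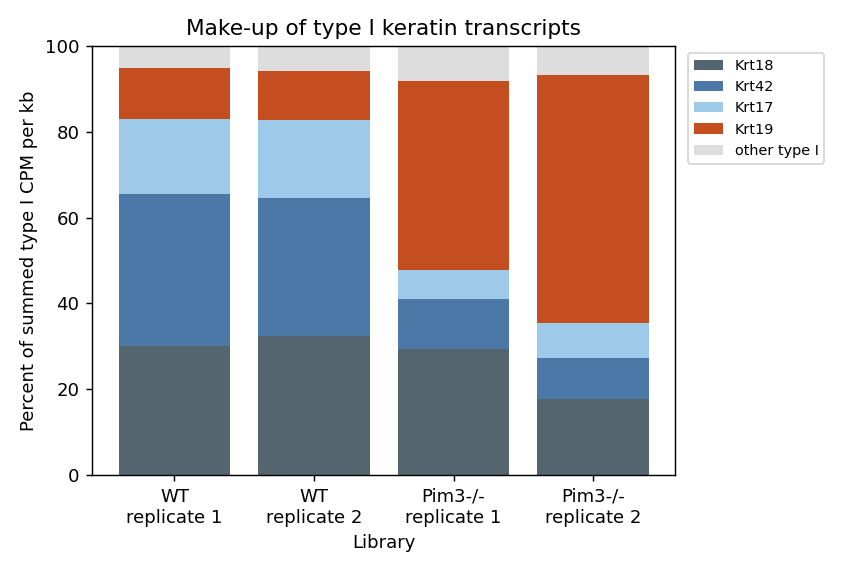
Share of each type I keratin in the summed type I CPM per kb, in percent, for each of the 4 libraries. In WT ESCs Krt19 takes 11.9% and 11.3% and in Pim3-/- ESCs 44.2% and 57.7%, and the shares of Krt42 and Krt17 are smaller in both Pim3-/- libraries.

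The remaining tested keratins were at low levels and not called. Krt7, a type II keratin of ducts and trophoblast, had counts of 32 and 47 in WT compared with 60 and 84 in Pim3-/- ESCs, so that all Pim3-/- values were above WT (log2 fold change 0.55, SE 0.38, adjusted p = 0.282 in edgeR). Krt10, the type I keratin of differentiated epidermis, had counts of 61 and 84 in WT compared with 93 and 80 in Pim3-/- ESCs, with overlapping groups after scaling (adjusted p = 0.882 in edgeR). Krt5, the type II keratin of basal cells, had 15 and 10 counts against 12 and 7 (log2 fold change -0.74, SE 0.59, adjusted p = 0.348 in edgeR). Krt15 and Krt222 had at most 19 counts in any library, with log2 fold changes of 0.53 and 0.05 and adjusted p = 0.502 and 0.949 in edgeR. Among keratins that did not pass the filter, the most counted after Krt80 were Krt71 of the hair follicle sheath (10 and 11 counts in WT, 12 and 9 in Pim3-/- ESCs), Krt16 (8 and 9, 6 and 10), Krt12 of the cornea (5 and 8, 8 and 12) and Krt14, the partner of Krt5 (6 and 9, 6 and 4). Krt12 overlaps A830036E02Rik over 54.4% of its exon bases, and the counts of that gene were the same in each library, 5, 8, 8 and 12. Krt16 shares 37.6% of its 50-base stretches with other genes, Krt14 13.9% and Krt5 12.2%, so the split of their few reads is uncertain.

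Of the 10 tested claudins 0 were called, either by edgeR or by the Wald test of DESeq2, where 17.6% of all tested genes rose and 16.2% fell, and 3 of them, Cldn19, Cldn7 and Cldn5, had an unadjusted p under 0.05 in edgeR. Cldn4, the most abundant, had counts of 1558 and 1845 in WT compared with 1194 and 2686 in Pim3-/- ESCs. After scaling the WT libraries were nearly equal at 81.4 and 81.5 CPM, with the first Pim3-/- library below them at 44.7 CPM and the second above them at 104 CPM. The log2 fold change was -0.13 (SE 0.34, adjusted p = 0.793 in edgeR). Without Pim3-/- replicate 1 it was 0.34 (adjusted p = 0.0340 in edgeR) and without Pim3-/- replicate 2 it was -0.88 (4.36e-08), so each clone taken alone was called, in opposite directions, and with library totals the value turned to 0.32. Such fits assume that the lone library varies as the WT libraries do. Cldn3, which lies 39.3 kb from Cldn4 on chromosome 5, had counts of 108 and 112 in WT compared with 169 and 248 in Pim3-/- ESCs, all Pim3-/- values above WT (log2 fold change 0.59, SE 0.30, adjusted p = 0.155 in edgeR). It was called with library totals (log2 fold change 1.05) and without Pim3-/- replicate 1 (0.85). Summed over the claudins, the level was 84.4 and 80.9 CPM per kb in WT and 59.8 and 87.6 in Pim3-/- ESCs, of which Cldn4 held 53.1%, 55.5%, 41.2% and 65.5%. In CPM with library totals the claudin sums were 130.7 and 135.2 in WT and 135.3 and 193 in Pim3-/- ESCs, so that the first Pim3-/- library then lay at the level of WT.

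Cldn6, a claudin of embryonic epithelia, had counts of 564 and 605 in WT compared with 685 and 409 in Pim3-/- ESCs. The second Pim3-/- library stood lowest, and after scaling both lay below WT, at 20.8 ± 6.93 CPM (SD, n = 2) versus 28.1 ± 1.93 CPM (SD, n = 2). The log2 fold change was -0.43 (SE 0.25, adjusted p = 0.202 in edgeR), it was called at -0.84 without Pim3-/- replicate 1, and it turned to 0.02 with library totals. Its neighbour Cldn9, whose end lies 137 bases away on the opposite strand, had counts of 41 and 39 in WT compared with 50 and 58 in Pim3-/- ESCs, with overlapping groups (log2 fold change 0.10, SE 0.37, adjusted p = 0.858 in edgeR). Cldn7, also found along the sides of epithelial cells, had counts of 324 and 301 in WT compared with 280 and 241 in Pim3-/- ESCs, or 15.1 ± 2.56 CPM (SD, n = 2) versus 9.92 ± 0.808 CPM (SD, n = 2). The log2 fold change was -0.61 (SE 0.23, adjusted p = 0.0739 in edgeR), and it was called when either Pim3-/- library was left out. Cldn5, the claudin of blood vessel endothelium, had counts of 87 and 110 in WT compared with 85 and 34 in Pim3-/- ESCs. The Pim3-/- libraries differed 2.41-fold from each other, both below WT after scaling (log2 fold change -1.06, SE 0.44, adjusted p = 0.0949 in edgeR). It was called without Pim3-/- replicate 1 (log2 fold change -1.85).

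Cldn12, which lacks the usual tail for binding scaffold proteins, had counts of 282 and 403 in WT compared with 528 and 463 in Pim3-/- ESCs (log2 fold change 0.21, SE 0.20, adjusted p = 0.429 in edgeR), and it was called with library totals (log2 fold change 0.66). Cldn19, a claudin of kidney and eye, had counts of 14 and 11 in WT compared with 38 and 34 in Pim3-/- ESCs. Both Pim3-/- values were above both WT values (log2 fold change 1.18, SE 0.46, adjusted p = 0.0842 in edgeR), and the gene was called with library totals (adjusted p = 0.0240 in edgeR) and with the stricter filter of 10 counts in every library (0.0485). Cldn18 of stomach and lung had 24 and 21 counts against 21 and 21, and Cldn15 of the intestine 10 and 13 against 11 and 17. Neither was called (adjusted p = 0.470 and 0.962 in edgeR). Cldn20, below the filter, had counts of 1 and 2 in WT compared with 8 and 8 in Pim3-/- ESCs. The ratio of its scaled group counts was 4.25, with an exact 95% interval of 1.22 to 22.8 for counting error alone. As for Krt80, the interval was computed because the gene was high in Pim3-/- libraries only, so it is a description, not a test.

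In 16 of the 24 tested members (66.7%) the fold between the Pim3-/- libraries was larger than that between the WT libraries, as it was in 66.5% of all tested genes. The median fold was 1.48 against 1.19 over the members and 1.28 against 1.14 over all tested genes. Among members with over 100 counts in both Pim3-/- libraries, the second clone library was the higher for Cldn4 (2.33-fold), Krt19 (1.67-fold), Krt17 (1.56-fold) and Cldn3 (1.52-fold), and the first for Cldn6 (1.62-fold) and Krt18 (1.31-fold), while Cldn7, Cldn12, Krt8 and Krt42 differed by 1.12-fold or less. Of the members with fewer counts, Krt20 (2.55-fold), Cldn5 (2.41-fold) and Krt222 (1.84-fold) differed most between the clones. Cldn18, Cldn19 and Krt15 differed by less than 1.1-fold.

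Of 66 companion genes in 4 lists, 59 were tested. The lists are tight junction partners, desmosome and cytolinker genes, epithelial regulators and other intermediate filaments, and not all of these genes work with keratins or claudins. Of these, 15 rose and 3 fell, that is 25.4% and 5.08%, beside 17.6% and 16.2% of all tested genes, with a median log2 fold change of 0.159 beside 0.068. With library totals 28 rose and 2 fell. Calls in these lists became fewer when either WT library was left out and more numerous when either Pim3-/- library was left out. The calls over all tested genes shifted in the same way, so this shift is not particular to these lists. Dsp and Dsg2 among the genes that rose, with Synm of the intermediate filament list, and Crb3 and Lmna among those that fell, were called in each of the 10 alternatives. Desmosome and cytolinker genes, which anchor keratin filaments, had 5 of 12 higher (41.7%, beside 17.6% of all tested genes) and 0 lower. Fewer of them were higher when either WT library was left out, and some were lower when either Pim3-/- library was left out. In those fits the calls over all tested genes also became fewer and more numerous, respectively. Dsp, which encodes desmoplakin and ties keratins to the desmosome, had counts of 131 and 219 in WT compared with 822 and 1477 in Pim3-/- ESCs (log2 fold change 2.41, SE 0.33, adjusted p = 0.00457 in edgeR). Like Krt19, it was highest in the second Pim3-/- library. Dsc2, a desmosomal cadherin, had counts of 2 and 6 in WT compared with 46 and 69 in Pim3-/- ESCs (log2 fold change 3.50, SE 0.60, adjusted p = 0.00691 in edgeR). Dsc2 passed the filter through the Pim3-/- libraries alone and had to differ to be tested, which also bears on the 5 of 12. Its call was lost without WT replicate 1. The other 3 that rose were Dsg2, another desmosomal cadherin, and the plakins Ppl and Evpl, both of which lost their call when either WT library was left out (adjusted p up to 0.0589 and 0.219 in edgeR).

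Among the tight junction partners of the claudins, 5 of 22 rose (22.7%) and 1 fell, beside 17.6% and 16.2% of all tested genes, with a median log2 fold change of 0.218. Tjp1, which encodes the scaffold ZO-1, had counts of 641 and 981 in WT compared with 1918 and 2050 in Pim3-/- ESCs (log2 fold change 0.98, SE 0.19, adjusted p = 0.00945 in edgeR). The scaffold gene Magi3 rose as well, from 60 and 80 to 189 and 255 counts (log2 fold change 1.35, SE 0.29, adjusted p = 0.0138 in edgeR), and so did Jam2, Jam3 and Lsr. When either WT library was left out these 5 calls were lost, with an adjusted p of up to 0.185 for Tjp1 and 0.156 for Magi3 in edgeR. Jam3 and Lsr were not called without a filter or by the Wald test of DESeq2 either, nor Lsr with the size factors of DESeq2. Crb3, an apical polarity gene, fell, with counts of 677 and 699 in WT compared with 164 and 224 in Pim3-/- ESCs (log2 fold change -2.16, SE 0.23, adjusted p = 0.00304 in edgeR). Ocln, which encodes occludin, was not called at 115, 122, 296 and 136 counts. The plot of these 4 lists gives all tested genes.

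**Figure D5:**
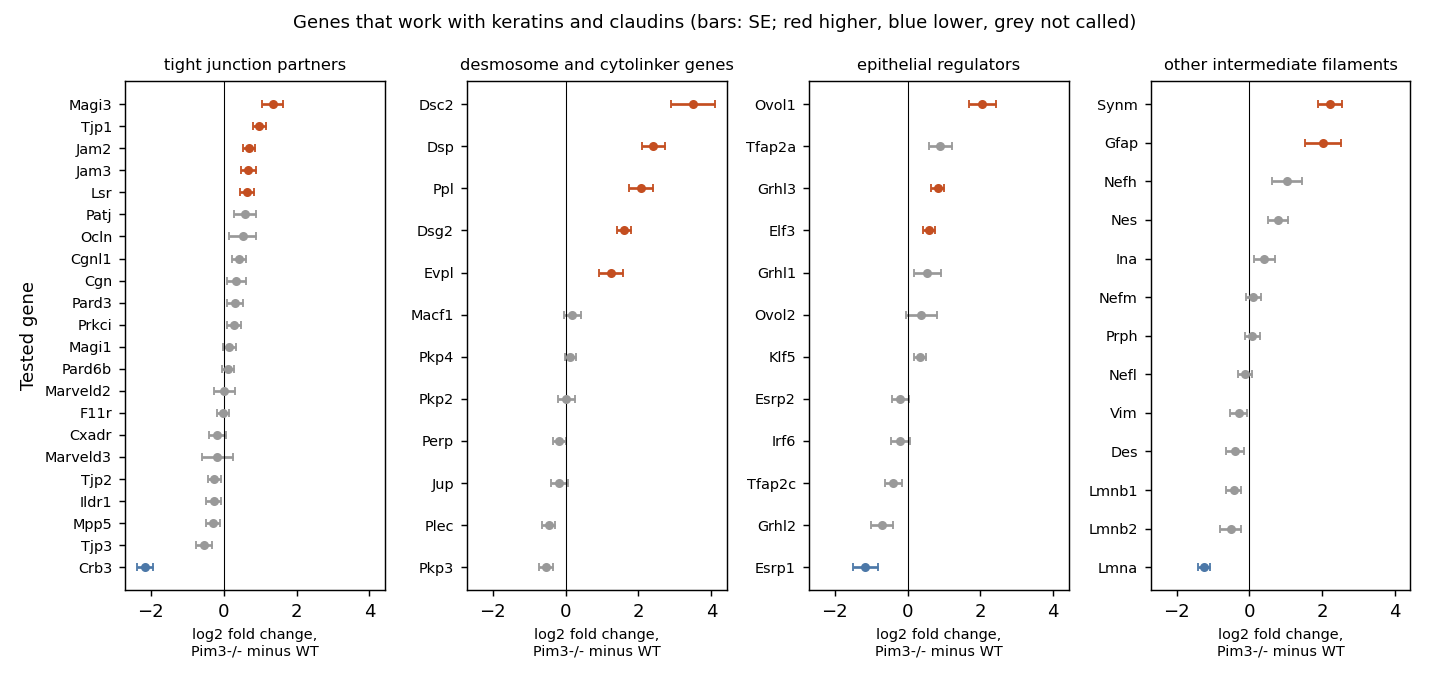
log2 fold change, Pim3-/- minus WT, with bars for the standard error, of the 59 tested genes in 4 lists, tight junction partners, desmosome and cytolinker genes, epithelial regulators and other intermediate filaments. Red points rose, blue points fell and grey points were not called at an adjusted p of 0.05. Dsc2, Dsp, Ppl, Dsg2 and Evpl stand apart from the other desmosome and cytolinker genes, and Crb3 is the only tight junction partner that fell.

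Of the regulators of epithelial identity, 3 of 12 rose and 1 fell (25% and 8.33%, beside 17.6% and 16.2% of all tested genes). Ovol1, a zinc finger factor of epithelial differentiation, had counts of 19 and 33 in WT compared with 154 and 116 in Pim3-/- ESCs (log2 fold change 2.06, SE 0.36, adjusted p = 0.00775 in edgeR). Grhl3, a grainyhead factor of the surface ectoderm, rose by 0.82 on the log2 scale (SE 0.17, adjusted p = 0.0126 in edgeR), and Elf3 rose too. The call of Ovol1 was lost without WT replicate 1 (adjusted p = 0.0869 in edgeR), and those of Grhl3 and Elf3 when either WT library was left out (up to 0.242 and 0.370), for Elf3 also without a filter and by the Wald test of DESeq2. Esrp1, a splicing regulator of epithelia, had counts of 349 and 432 in WT compared with 305 and 137 in Pim3-/- ESCs and fell (log2 fold change -1.15, SE 0.34, adjusted p = 0.0366 in edgeR), a call lost when either WT library was left out and in 2 other alternatives. Among 13 other intermediate filament genes 2 rose and 1 fell (15.4% and 7.69%). Synm rose from 40 and 64 to 370 and 228 counts (log2 fold change 2.20, SE 0.33, adjusted p = 0.00540 in edgeR). Gfap rose from 8 and 7 to 43 and 35 (log2 fold change 2.02, SE 0.49, adjusted p = 0.0183 in edgeR). Gfap passed the filter through the Pim3-/- libraries alone, so it had to differ to be tested at all. It was not called when either WT library was left out. Lmna, the gene of the nuclear lamins A and C, fell from 1114 and 1351 to 684 and 625 counts (log2 fold change -1.24, SE 0.16, adjusted p = 0.00408 in edgeR).

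Markers of other cell types moved beside the keratins. Their shares of calls stand beside 17.6% higher and 16.2% lower among all tested genes, whose median log2 fold change was 0.068. Of 16 primitive endoderm markers 13 were tested, and 11 of these rose (84.6%), with a median log2 fold change of 3.16. Their summed level was 449 and 466 CPM in WT and 755 and 727.5 CPM in Pim3-/- ESCs, and Lamb1, among the most abundant of them, rose by a log2 fold change of 1.47, while Sparc, the most abundant, was not called. Fewer of these markers rose when either WT library was left out, as over all tested genes. Sox7 (3 and 0 counts in WT) and Sox17 (1 and 5) passed the filter through the Pim3-/- libraries alone, so they had to differ to be tested. Of 12 trophoblast markers 6 were tested, and 4 of these rose (66.7%), Eomes, Gata3, Ascl2 and Esx1. Of these only Eomes stayed called when either WT library was left out. Gata3, with 4 and 4 counts in WT, passed the filter through the Pim3-/- libraries alone and had to differ to be tested. Tfap2c, which made up most of the list's level in WT, was not called. It was at 59.8 CPM ± 0.983 (SD, n = 2) in WT and 45.6 CPM ± 14.9 (SD, n = 2) in Pim3-/- ESCs (log2 fold change -0.39, adjusted p = 0.220 in edgeR). The sum over the trophoblast list was 72.6 and 74.8 CPM in WT and 86.0 and 101 CPM in Pim3-/- ESCs. The placental markers Prl3d1 and Tpbpa had no count in any library. Cdx2 (1 and 5 counts in WT, 12 and 2 in Pim3-/- ESCs) and Elf5 (3 and 5, 6 and 3) were not tested, and their groups overlapped. Of the 10 pluripotency markers 1 rose (10%) and 3 fell (30%), and none of these calls held when either WT library was left out. Pou5f1 was among those that fell and Tdgf1 was not called, with sums over the list of 6743 and 6554 CPM in WT and 5052 and 4949 CPM in Pim3-/- ESCs. Of 10 epidermal and squamous markers 5 were tested and 1 (20%), Sfn, fell, while Cdh3 was not called. This list summed to 185 and 187 CPM in WT and 118.5 and 95.2 CPM in Pim3-/- ESCs, and Sprr1a had no count. Fibroblast markers had 2 of 10 tested, none of them called (Col1a1 with adjusted p = 0.118 and Thy1 with 0.604 in edgeR), with sums of 21.7 to 22.8 CPM in WT and 20.83 to 26.04 CPM in Pim3-/- ESCs and Lum and Prrx1 without a count. Neuroectoderm markers had 7 of 10 tested, with 2 higher (28.6%), among them Otx2, and 1, Tubb3, lower (14.3%). None of these calls held when either WT library was left out. This list summed to 142 to 149 CPM in WT and 100.4 to 114 CPM in Pim3-/- ESCs, with Dcx without a count. As background, primitive endoderm and trophoblast cells use Krt8, Krt18 and Krt19. The part of such cells in the keratin values was not tested.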

How the data were processed

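RNA-seq libraries of 2 WT samples and 2 Pim3-/- clones of E14 ESCs were compared. The authors deposited raw counts per gene, which were used as deposited. The paper names Cutadapt, Hisat2, mm10 and Ensembl genes, whereas the submitters' processing notes name Trim Galore, STAR, featureCounts and GRCm38. The use of strand and of reads with several locations is not given in the sources used here. Replicate numbers are those of the sample titles, and which clone each stands for is not stated.

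Differential expression was tested with the quasi-likelihood test of edgeR 4.0.16 and TMM factors, after filterByExpr had removed genes with low counts (minimum count of 10 and minimum total of 15). The Benjamini-Hochberg adjustment covered the 18444 genes left. Called means an adjusted p under 0.05. Standard errors are the unshrunken log2 fold change divided by the root of F. Genes were located and exon lengths taken from GENCODE M21 (GRCm38), in which all 73 members were found. Shared sequence was counted as 50-base and 100-base stretches of a gene's transcripts that occur in another gene. The programs ran in R 4.3.3 and Python 3.11.15 and were tested on simulated counts. The total counts, 22029427 to 25668307 per library, set the precision at low counts.

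The members and the gene lists were chosen with earlier results of these data known. Named are all tested members, the 5 most counted untested ones, the 2 called genes with the largest rise and the 2 with the largest fall of each companion list (each library of the group with more counts having at least 10), and the 2 most abundant genes of each marker list. Genes named beyond these rules (such as Ocln, Eomes and the other called genes of a list) were chosen after their values were seen.

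Alternatives were DESeq2 size factors or library totals for scaling, no filter, DESeq2 1.42.0 with its Wald test, a filter of 10 counts in every library, a replicate block, absence limits of 0 and 10 counts, and leaving out each library.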

Additional observations from a re-analysis of the deposited data

How the results depend on the processing

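The directions of Krt19, Krt20, Krt23, Krt79, Krt42, Krt17 and Krt13 held in every alternative that tested them. With library totals 7 members rose, 1 fell by 3-fold or more, 28 companion genes rose and the members' median log2 fold change was 0.395. The values that changed sign there were Cldn4 at 0.324, Cldn15 at 0.408, Cldn18 at 0.016, Krt10 at 0.381, Krt8 at 0.282 and Cldn6 at 0.019. Without a filter the members' median was 0.493, with 61 members fitted. With at least 10 counts in every library 18 members were tested (Krt20, Krt23, Krt79, Krt13, Krt15 and Krt5 were left out), 2 rose, 1 of them by 3-fold or more, 1 fell by 3-fold or more, and Cldn15 and Krt10 changed sign to 0.041 and 0.013. With the replicate block 5 members fell, Krt18 (log2 fold change -0.589) and Cldn5 (-1.165) being added (adjusted p = 0.0338 and 0.0467 in edgeR), and no call was lost. The labels link the samples by the number only. Same-numbered samples did not deviate together (correlation of deviations across genes 0.0179), which does not show that they were handled apart. With DESeq2's size factors 4 fell. The Wald test of DESeq2 called the same 7 members.

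Leaving out each library gave 1 to 7 members higher, 1 to 7 lower, 1 to 5 higher and 1 to 3 lower by 3-fold or more, 3 to 24 companion genes higher and 2 to 12 lower, and a members' median of -0.168 to 0.207. Signs changed for 4 members among these fits. Cldn4 ranged from -0.88 without Pim3-/- replicate 2 to 0.338 without Pim3-/- replicate 1, Cldn15 from -0.426 to 0.243 without the same libraries, Cldn9 from -0.136 without WT replicate 2 to 0.208 without WT replicate 1 (and -0.055 without Pim3-/- replicate 2), and Krt222 was at -0.461 without Pim3-/- replicate 1, at -0.273 without WT replicate 2 and at most at 0.408. The cause of these differences was not tested. With an absence limit of 10 counts 19, 19, 23 and 24 members were present in WT replicates 1 and 2 and Pim3-/- replicates 1 and 2, and with a limit of 0 counts 42, 40, 53 and 49. Changes among the members with at most 3 counts in every library were not detectable at this depth.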
